A study of Arabidopsis thaliana with 4 samples.

Results

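In Arabidopsis thaliana roots, 85 loci had persistently fewer reads in the line labelled arf10/16 than in wild type, both with and without aluminium (Al). They were chosen from the deposited counts by a rule on measured values. Reads of all models of a locus were summed and divided by the column total, and the ratio of arf10/16 over wild type had to be at most 0.5 in both treatments. Both wild-type (WT) libraries also had to hold 20 or more reads. The rule found 85 of 22284 loci, and 9737 loci met the read minimum. Of those 9737 loci, 2.59% had a ratio of at most 0.5 with Al, 3.7% had one without Al and 0.873% had both. Because the rule used these ratios, the genotype differences of the members are given as a description, with no test.

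The study compared the Al response of wild-type roots with that of a line labelled as mutant in ARF10 and ARF16, which encode auxin response factors. Each of the 4 groups has 1 root RNA library: arf10/16 with Al, arf10/16 without Al, WT with Al and WT without Al. Both genotypes are in the Col-0 background. About 500 seedlings, 6 days old, were kept for 24 h with 10 or 0 µM AlCl3 in a 2% MGRL solution at pH 5.0 before their roots were collected. The labels name no allele and no separate cultures, so no difference between single libraries has a replicate. Bracketed ranges are exact 95% counting intervals, which cover counting error only.

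The level of ARF10 went against its label. It had 2640 reads in arf10/16 with Al and 3820 without, against 142 in WT with Al and 110 without. ARF16 had 41 reads in arf10/16 with Al and 71 without, against 75 in WT with Al and 159 without, and missed the rule with a ratio of 0.599 with Al. The counts do not show whether a working protein is made from either transcript. The libraries are therefore called by their labels, and every direction between genotypes rests on those labels.

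Auxin response factors bind promoters of auxin-regulated genes, and ARF10 and ARF16 belong to the class known mainly as repressors. Both are targets of a microRNA and are known for their part in root cap development. Among the members are 2 kinds of membrane protein of amino acid movement. Glutamine dumpers (GDU) are small plant membrane proteins that raise amino acid export when overproduced, and UMAMIT proteins are transporters, several of which are known to carry amino acids out of cells.

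The libraries held 2080348 to 2280894 reads. Marker lists of other cell types differed between the genotypes as well. Xylem markers summed to 138 CPM (reads scaled by the column total) in arf10/16 with Al and 246 without, against 186 in WT with Al and 406 without, and 4 of the 6 were lower in both treatments. All 10 root hair markers were higher in arf10/16 in both treatments, with sums of 436 CPM with Al and 1565 without, against 162 in WT with Al and 1307 without. Endodermis markers summed to 238 CPM in arf10/16 with Al and 620 without, against 177 in WT with Al and 749 without. The 10 shoot photosynthesis markers stayed at 33.2 CPM in arf10/16 with Al and 50.3 without, against 18.0 in WT with Al and 31.4 without. Root cap markers summed to 19.7 CPM in arf10/16 with Al and 28.3 without, against 9.6 in WT with Al and 44.4 without. These root cap sums rest on 41 and 62 reads in arf10/16 with and without Al, against 22 and 99 in WT. No root cap or shoot photosynthesis marker had 20 reads in both WT libraries. The 2 phloem markers gave 53.8 and 58.0 CPM in arf10/16 with and without Al, against 84.2 and 47.5 in WT with and without Al. Only 1 of these 2 had 20 reads in both WT libraries. No marker of these lists was at 0 in all libraries. The share of all loci lower or higher in both treatments is not given here, so the marker counts lack a background. The part of cell type shares in the members' levels was not tested, and fewer cells of a type cannot be told apart from less RNA per cell.

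Most members were moderately lower and thinly read. The median member had 19 reads in arf10/16 with Al and 18 without, against 59 in WT with Al and 49 without. Over all 9737 eligible loci the medians were 84 and 90 reads in arf10/16 with and without Al, against 97 and 96 in WT with and without Al. The median member was 2.46-fold lower in arf10/16 with Al and 2.54-fold lower without. With Al, 47 of the 85 members had a ratio above 0.4, and without Al 38 did. Only 7 members had a ratio of 0.25 or less with Al and 8 without. The counting interval lay below a ratio of 1 in both treatments for 78 members, and below the limit of 0.5 in both for 4. The rule chose members by these same ratios, so the intervals describe counting error and give the genotype difference no support. Scaling by TMM moved every arf10/16 over WT log2 ratio up by 0.10 with Al and 0.13 without, and 61 members then met the rule. By column totals, which the rule used, the median log2 ratio of eligible loci was -0.08 with Al and -0.15 without. With TMM it was 0.02 with Al and -0.03 without.

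**Figure D1:**
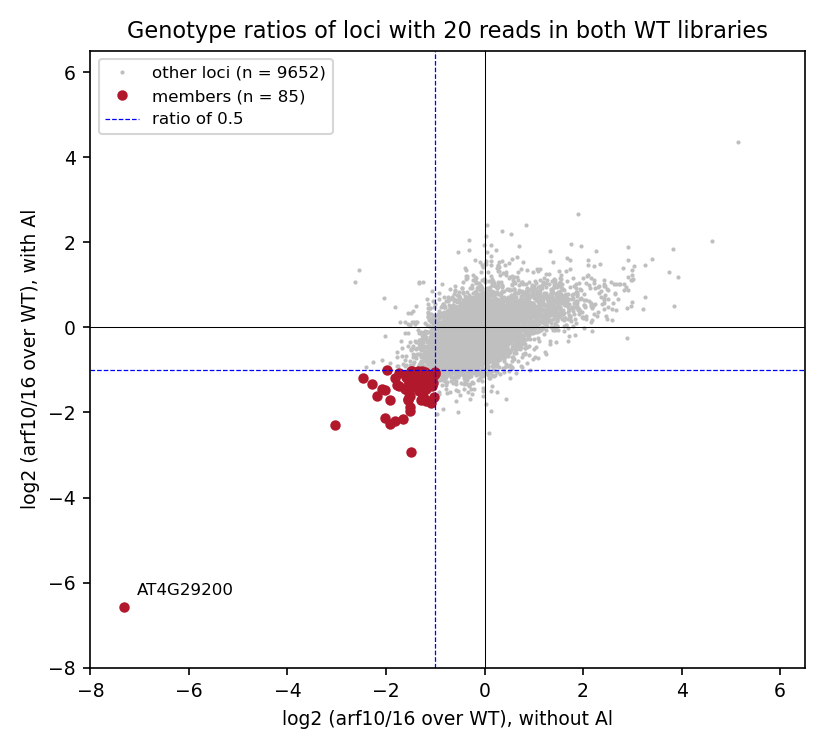
Log2 ratio of arf10/16 over WT without Al (horizontal axis) and with Al (vertical axis), from CPM, for the 9737 loci with 20 reads in both WT libraries. Red points are the 85 members, which lie below both dashed lines (a ratio of 0.5) by construction, and AT4G29200 stands far below the rest.

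AT4G29200, annotated as a beta-galactosidase related protein, was almost without reads in the line labelled arf10/16. It had 1 read in arf10/16 with Al and 1 without, against 105 in WT with Al and 162 without. That is 95.8-fold lower with Al (16.8 to 3818) and 159-fold lower without (28.1 to 6312). The next lowest ratios among members were 7.60-fold with Al and 8.17-fold without. No other eligible locus had 3 or fewer reads in both arf10/16 libraries. The nearest 10 annotated genes on either side of AT4G29200 were looked up, and 8 of these neighbours had 20 reads in both WT libraries. Their ratios lay between 0.539 and 1.12 across both treatments, so the near loss was not shared by them. The sugar kinase gene PFK1, close by, had 135 reads in arf10/16 with Al and 245 without, against 137 in WT with Al and 253 without.

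The glutamine dumper family was represented by 4 members out of 7 genes with any reads, and these 4 were the only GDU genes with 20 reads in both WT libraries. GDU6 had 5 reads in arf10/16 with Al and 3 without, against 27 in WT with Al and 25 without. GDU2 had 18 reads in arf10/16 with Al and 14 without, against 88 in WT with Al and 45 without. GDU1 had 17 reads in arf10/16 with Al and 14 without, against 57 in WT with Al and 41 without. In each of these genes both arf10/16 libraries were below both WT libraries. With both ratios at most 0.5, such separation follows from the rule wherever the Al difference is small, here and in the members below. GDU3, the most abundant of the family at 134 RPKM in WT with Al, had 105 reads in arf10/16 with Al and 72 without, against 265 in WT with Al and 180 without. GDU6 was 4.92-fold lower with Al (1.87 to 16.4) and 8.17-fold lower without (2.49 to 42.3). GDU2 was 4.46-fold lower with Al (2.66 to 7.87) and 3.15-fold lower without (1.70 to 6.22). GDU3 was 2.30-fold lower with Al (1.83 to 2.91) and 2.45-fold lower without (1.85 to 3.27). Another gene, GDU4, was outside the rule only by its reads. It had 8 reads in arf10/16 with Al and 7 without, against 29 in WT with Al and 17 without. GDU5 and GDU7 had at most 4 reads in any library. Over the 5 GDU genes that passed edgeR's expression filter, the median log2 ratio of arf10/16 over WT was -1.52 with Al and -1.40 without. All 14739 loci past that filter had medians of -0.06 with Al and -0.12 without. As 4 of the 5 genes were chosen by these same ratios, the medians describe the family and support nothing about it. GDU genes resemble each other, and no source used here says how reads shared by similar genes were counted.

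The UMAMIT transporter family, looked at after the values were seen, had 3 members. UMAMIT14, known to export amino acids from root phloem, had 51 reads in arf10/16 with Al and 16 without, against 179 in WT with Al and 38 without. UMAMIT11 had 101 reads in arf10/16 with Al and 79 without, against 272 in WT with Al and 167 without. UMAMIT21 was thinly read, with 10 and 15 reads in arf10/16 with and without Al, against 23 and 37 in WT with and without Al. UMAMIT14 was 3.20-fold lower with Al (2.33 to 4.46) and 2.33-fold lower without (1.27 to 4.47). The interval of UMAMIT21 with Al (0.96- to 4.94-fold lower) did not exclude equal levels. The family did not move as 1 block: of 36 genes with reads, 14 were eligible and 3 of these were members. Of the 14, 5 met the limit with Al and 4 without, beside 2.59% and 3.7% of all eligible loci. The 22 family genes past edgeR's expression filter had a median log2 ratio of -0.61 with Al and -0.45 without. Over all loci past that filter the medians were -0.06 and -0.12. The members are part of these values, which describe the family and support nothing about it. UMAMIT17 had 51 and 149 reads in arf10/16 with and without Al, against 47 and 141 in WT with and without Al, and both of its counting intervals included a ratio of 1. With TMM scaling, UMAMIT11 and UMAMIT21 no longer met the rule, whereas UMAMIT14 still did.

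**Figure D2:**
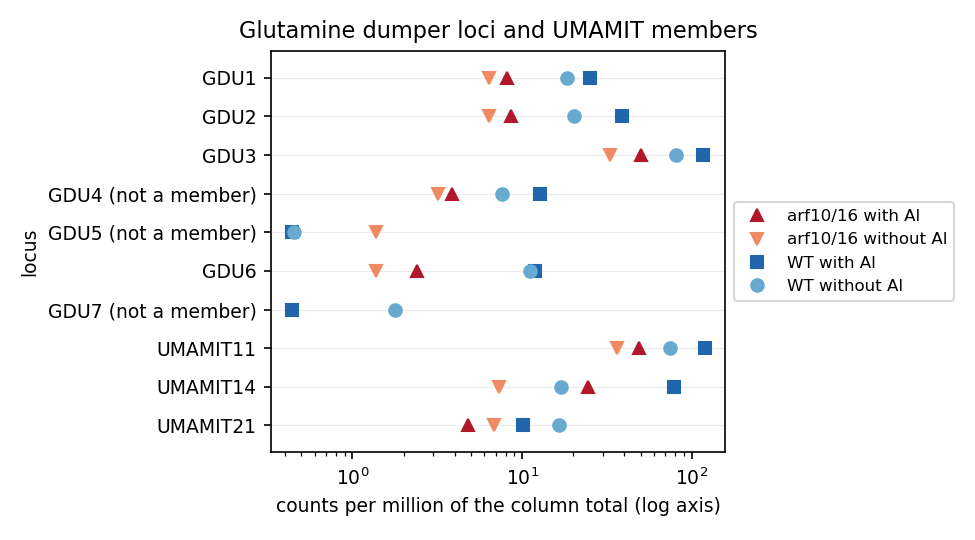
CPM (log axis) of the 7 glutamine dumper loci and the 3 UMAMIT members in the 4 libraries, 1 point for each library, with libraries at 0 not drawn. In the 4 GDU members and in GDU4 both arf10/16 points lie left of both WT points, and in UMAMIT14 the arf10/16 point with Al lies right of the WT point without Al.

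AK3, which encodes an aspartate kinase at the entry to the aspartate family of amino acids, was also a member. It had 102 reads in arf10/16 with Al and 190 without, against 278 in WT with Al and 422 without. That is 2.49-fold lower with Al (1.97 to 3.15) and 2.18-fold lower without (1.83 to 2.60). Both arf10/16 libraries were below both WT libraries.

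Several members belong to mineral nutrition. LSU4, of a small family induced by low sulfur, had 18 reads in arf10/16 with Al and 13 without, against 87 in WT with Al and 54 without. It was 4.41-fold lower with Al (2.63 to 7.78) and 4.07-fold lower without (2.19 to 8.14). Its relative LSU2 had 29 reads in arf10/16 with Al and 9 without, against 54 in WT with Al and 39 without, and met the limit only without Al. Of 14 sulfur deficiency genes with reads, LSU4 was the 1 member, and 3 of 5 eligible genes met the limit without Al against 1 with Al. The list was not lower throughout. Its 8 genes past edgeR's expression filter had a median log2 ratio of 0.36 with Al and -0.48 without, beside -0.06 and -0.12 over all loci past it. Of the 14 genes with reads, 3 were below WT in both treatments and 2 above, counts that lack a background share of all loci.

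PEPC1, a phosphoethanolamine and phosphocholine phosphatase, had 48 reads in arf10/16 with Al and 27 without, against 144 in WT with Al and 84 without. The glycerophosphodiester phosphodiesterase gene GDPD3 had 14 and 16 reads in arf10/16 with and without Al, against 38 and 47 in WT with and without Al. PPCK2, whose product phosphorylates phosphoenolpyruvate carboxylase, had 28 and 19 reads in arf10/16 with and without Al, against 65 and 49 in WT with and without Al. All 3 genes had both arf10/16 libraries below both WT libraries. VTL2 (AT1G76800), a vacuolar iron transporter-like gene, had 7 reads in arf10/16 with Al and 23 without, against 20 in WT with Al and 63 without. Here the untreated arf10/16 library was above the Al-treated WT library. None of the 22 genes of the phosphate starvation list was a member, although IPS1, a non-coding RNA of that response, missed the limit without Al with a ratio of 0.506. Of the 22 genes, 20 were eligible. As the rule took 0.873% of all eligible loci, the lack of a member among these 20 says little. The limit was met by 1 of the 20 with Al and by 6 without, beside 2.59% and 3.7% of all eligible loci. That list does not include PEPC1, GDPD3 or PPCK2, so these counts cover its 22 genes and not every gene of the response.

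Members of the wall and the secretory route included AT5G07030, the best-read member in both Al-treated libraries. XTH31, a xyloglucan endotransglucosylase/hydrolase known to affect Al binding in root walls, had 92 reads in arf10/16 with Al and 221 without, against 328 in WT with Al and 551 without. It was 3.25-fold lower with Al (2.57 to 4.14) and 2.44-fold lower without (2.09 to 2.87). XTH31 was the 1 member among 23 genes of its list. Of the 23, 7 were below WT in both treatments and 7 above, counts that lack a background share of all loci. AT5G07030, an aspartyl protease, had 311 reads in arf10/16 with Al and 285 without, against 766 in WT with Al and 654 without. A second aspartyl protease gene, AT3G20015, had 61 and 68 reads in arf10/16 with and without Al, against 145 and 181 in WT with and without Al. The glycosyl hydrolase gene AT1G78060 had 209 and 168 reads in arf10/16 with and without Al, against 475 and 345 in WT with and without Al, and lay just inside the limit. GATL3, a galacturonosyltransferase-like gene, had 12 and 29 reads in arf10/16 with and without Al, against 30 and 88 in WT with and without Al. The proteases and AT1G78060 had arf10/16 libraries apart from WT libraries, whereas GATL3 was level between arf10/16 without Al and WT with Al.

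A group of 8 members, put together by annotation after the values were seen, holds transcription factors and related genes; AT5G47920 and AT5G55580 are described elsewhere. NF-YA2, a subunit of the nuclear factor Y complex, had 41 reads in arf10/16 with Al and 40 without, against 121 in WT with Al and 104 without. CDF3, a Dof factor of the cycling group, had 66 and 93 reads in arf10/16 with and without Al, against 149 and 219 in WT with and without Al. TCP15, a TCP factor that limits cell proliferation, had 11 and 15 reads in arf10/16 with and without Al, against 35 and 44 in WT with and without Al. These 3 genes had both arf10/16 libraries below both WT libraries. The myb-like gene AT3G25790 had 38 and 97 reads in arf10/16 with and without Al, against 109 and 208 in WT with and without Al. The group was 2.06- to 2.90-fold lower with Al and at most 3.01-fold lower without.

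Another 5 members encode enzymes of specialised metabolism or hormone synthesis. CYP83A1, a P450 of aliphatic glucosinolate synthesis, was the best-read member in WT without Al. It had 199 reads in arf10/16 with Al and 356 without, against 446 in WT with Al and 881 without. LBO1, an oxidase of strigolactone synthesis, had 116 and 53 reads in arf10/16 with and without Al, against 280 and 112 in WT with and without Al. CYP71B26 had 4 reads in arf10/16 with Al and 41 without, against 21 in WT with Al and 159 without. In CYP71B26 the treatments differed more than the genotypes, so the arf10/16 library without Al was above the WT library with Al. The UDP-glycosyltransferase genes AT2G18560 and AT2G18570 were the only members next to each other among measured loci. AT2G18560 had 8 and 10 reads in arf10/16 with and without Al, against 34 and 29 in WT with and without Al. AT2G18570 had 46 and 31 reads in arf10/16 with and without Al, against 122 and 81 in WT with and without Al. Shared reads between these similar neighbours cannot be told apart here.

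Other low ratios came from genes of varied annotation. RTFL16, of a family of small peptides that limit cell proliferation, had 26 reads in arf10/16 with Al and 13 without, against 87 in WT with Al and 60 without. AT5G67430, an acyl-CoA N-acyltransferase, had 118 reads in arf10/16 with Al and 58 without, against 361 in WT with Al and 241 without. It was 2.79-fold lower with Al (2.26 to 3.46) and 4.07-fold lower without (3.05 to 5.53), and the counting intervals overlapped. MAKR4, a membrane-associated kinase regulator, had 48 and 13 reads in arf10/16 with and without Al, against 127 and 36 in WT with and without Al. AT1G11700 had 3 reads in arf10/16 with Al and 7 without, against 25 in WT with Al and 20 without, the lowest ratio with Al after AT4G29200. The telomere repeat factor-like gene TRFL7 had 9 and 4 reads in arf10/16 with and without Al, against 25 and 20 in WT with and without Al. The mitochondrial transcription termination factor family gene AT5G55580 had 8 and 5 reads in arf10/16 with and without Al, against 20 and 28 in WT with and without Al. Ratios of these last 3 genes rest on few reads, and the interval of AT5G55580 with Al (2.28-fold, 0.96 to 5.99) did not exclude equal levels.

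**Figure D3:**
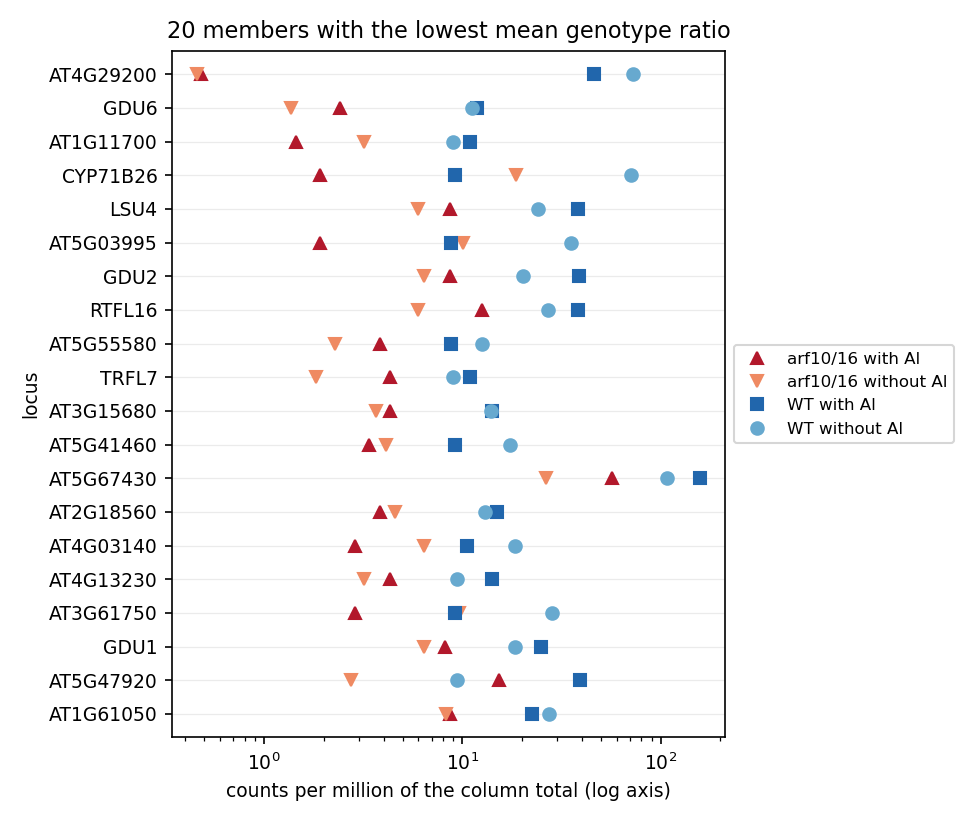
CPM (log axis) in the 4 libraries for the 20 members with the lowest mean log2 genotype ratio, lowest at the top, 1 point for each library. AT4G29200 has both arf10/16 points near 0.5 CPM and both WT points above 40 CPM, and 12 of the 20 loci had fewer than 50 reads in WT without Al.

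The remaining low members can be given by range. AT3G15680, AT5G41460, AT4G03140, AT4G13230, AT3G61750, AT5G47920, AT1G61050 and AT5G03995 had ratios that ranged from 2.54-fold (AT5G47920) to 4.56-fold (AT5G03995) lower with Al. Without Al they ranged from 2.87-fold (AT4G03140) to 4.25-fold (AT5G41460) lower. All 20 members with the lowest mean ratio met the rule with TMM scaling too. Among the 18 members with 100 or more reads in both WT libraries, 10 did. Those that did not were AT1G49470, AT3G25790, AK3, UMAMIT11, CYP83A1, CDF3, LBO1 and AT1G78060. In all, 24 of the 85 members no longer met the rule with TMM scaling, with PPCK2 and AT2G45135 as examples among the thinner ones. Apart from AT4G29200, the 18 members with 100 or more reads were 2.02- to 3.25-fold lower with Al and 2.01- to 4.07-fold lower without. They include AT5G17340, a putative membrane lipoprotein, with 125 and 75 reads in arf10/16 with and without Al, against 312 and 271 in WT with and without Al. AT5G43150 had 107 and 123 reads in arf10/16 with and without Al, against 267 and 288 in WT with and without Al. The uncharacterized gene AT5G20790 had 44 and 82 reads in arf10/16 with and without Al, against 108 and 221 in WT with and without Al. AT1G49470 had 76 and 46 reads in arf10/16 with and without Al, against 168 and 184 in WT with and without Al. All 4 of these loci had both arf10/16 libraries below both WT libraries.

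**Figure D4:**
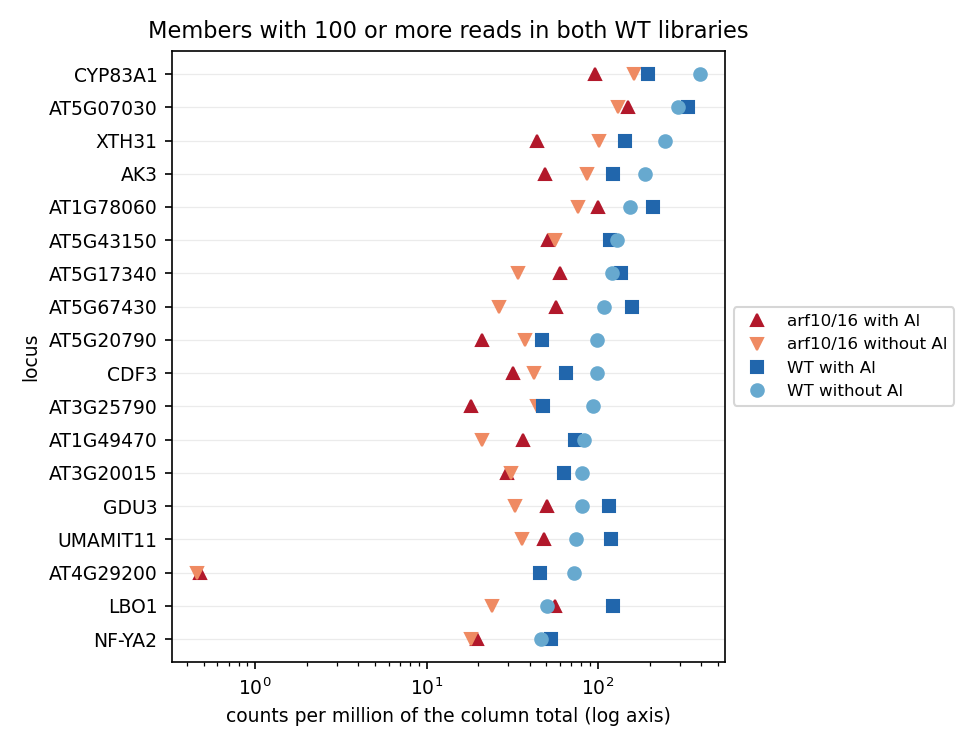
CPM (log axis) in the 4 libraries for the 18 members with 100 or more reads in both WT libraries, ordered by the WT level without Al. The points of LBO1 show the Al difference crossing the genotype difference, with the Al-treated arf10/16 point at 55.8 CPM and the untreated WT point at 50.2 CPM.

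Values near the limits show how fine the rule is. With Al, the members closest to the limit were CYP83A1, AT3G21670 and AT1G49470, with ratios of 0.489, 0.490 and 0.496. Just outside with Al were the cyclin gene CYCA1;1, PPC2 and IPT2, at 0.5001, 0.502 and 0.506. Without Al, AT2G23530, AT5G26330 and AT1G78060 were just inside at 0.488, 0.495 and 0.497. NPC6, IPS1 and LCR68 were just outside, at 0.502, 0.506 and 0.508.

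The members did not share an Al response. The rule did not use the Al contrast itself, but it is not independent of the test. Its read minimum keeps out loci nearly silent in either WT library, and its limits on both genotype ratios bound the departure from additivity that the test takes as error. The Al effect was tested over both genotypes with edgeR's quasi-likelihood test in an additive model. All 85 members could be tested; 13 rose with Al and 12 fell at an adjusted p below 0.05, which is 15.3% and 14.1%. Of all 14739 loci tested, 15.5% rose and 13.1% fell, and of the 9737 eligible loci 16.5% rose and 12.8% fell. The members' shares were thus near the background, a comparison that the rule's limits also touch. The median Al effect was 0.05 over the members and -0.01 over all loci tested (log2).

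The largest rises were those of AT5G47920, UMAMIT14, AT2G45135, MAKR4 and LBO1. AT5G47920, annotated as a transcription elongation factor, had 32 reads with Al and 6 without in arf10/16, and 89 with Al and 21 without in WT. Its Al effect was 2.27 ± 0.31 (log2, SE; adjusted p = 0.000967, edgeR). UMAMIT14 rose by 2.12 ± 0.25 (adjusted p = 0.000511, edgeR), 3.35-fold in arf10/16 (1.88 to 6.30) and 4.61-fold in WT (3.23 to 6.73). AT2G45135, a RING/U-box gene, rose by 2.05 ± 0.27 (adjusted p = 0.000831, edgeR), MAKR4 by 1.93 ± 0.25 (adjusted p = 0.000809, edgeR) and LBO1 by 1.34 ± 0.20 (adjusted p = 0.00147, edgeR). In all 5 the Al-treated library was the higher one in both genotypes. Of the 4 GDU members, GDU3 passed the test with a rise of 0.65 ± 0.19 (adjusted p = 0.033, edgeR), a call lost with column totals, DESeq2 and limma-trend and kept without the expression filter. GDU2, GDU1 and GDU6 did not pass (0.87, 0.50 and 0.31), nor did LSU4 at 0.71.

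The largest falls were those of CYP71B26, AT5G03995, AT1G76800, AT3G61750 and GATL3. CYP71B26 fell by 2.93 ± 0.29 (log2, SE; adjusted p = 0.000215, edgeR), to 9.74-fold lower in arf10/16 and 7.74-fold lower in WT. AT5G03995, uncharacterized, had 4 reads with Al and 22 without in arf10/16, and 20 with Al and 79 without in WT. It fell by 2.00 ± 0.33 (adjusted p = 0.00269, edgeR). VTL2 (AT1G76800) had an Al effect of -1.57 ± 0.33, AT3G61750, a cytochrome b561-type gene, -1.55 ± 0.33, and GATL3 -1.36 ± 0.29, all past the test. XTH31 (-0.88 ± 0.20), CYP83A1 (-0.81 ± 0.19) and AK3 (-0.63 ± 0.19) fell as well, by less. The test has 1 residual degree of freedom. With DESeq2's Wald test only the 5 largest rises and the falls of CYP71B26 and AT5G03995 remained past the threshold.

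**Figure D5:**
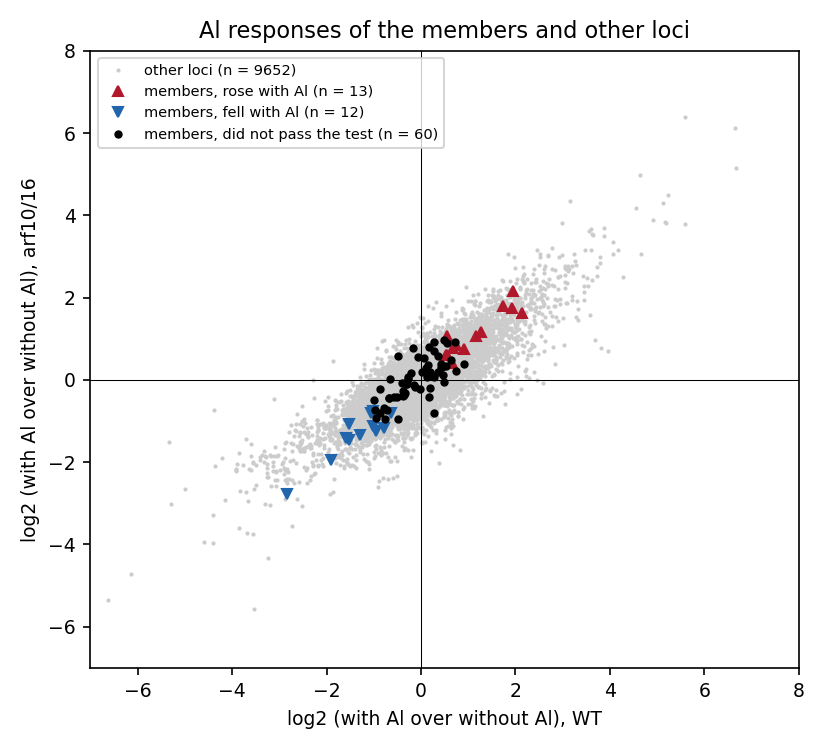
Log2 ratio of CPM with Al over without Al in WT (horizontal axis) and in arf10/16 (vertical axis), with a prior count of 2, for the 9737 eligible loci. Grey points are other loci; red triangles are the 13 members that rose with Al, blue triangles the 12 that fell and black points the 60 that did not pass the test.

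Within each genotype, a member was counted as higher or lower with Al if its log2 ratio was at least 1 in size and its counting interval excluded a ratio of 1. In arf10/16, 7 members were higher and 9 lower, beside 7.77% higher and 7.6% lower of the 9737 eligible loci. In WT, 6 members were higher and 9 lower, beside 10.5% higher and 9.73% lower. Both genotypes gave the same call for 13 members, 6 higher and 7 lower. Of the 9737 eligible loci, 6.03% were higher and 4.98% lower in both genotypes, and none, members included, had opposite calls. The difference of Al responses, arf10/16 minus WT, had a median of 0.06 and ran from -1.07 in AT1G11700 to 1.05 in AT5G55580 (log2). The rule keeps out loci with a genotype ratio of at most 0.5 in only 1 treatment, which touches this difference but does not bound it. For 12 members the Al difference was wide enough that an arf10/16 library reached a WT library of the other treatment. For 73, both arf10/16 libraries lay below both WT libraries, a separation that the rule's limits favour.

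The members were spread over all 5 nuclear chromosomes. Chromosome 3 held 22 of them (25.9%, beside 20.1% of eligible loci) and chromosome 2 held 14 (16.5%, beside 14.9%). Chromosome 1 held 20 (23.5%, beside 25.6%), chromosome 5 held 18 (21.2%, beside 24.1%) and chromosome 4 held 11 (12.9%, beside 15.2%). No member was an organelle gene, beside 0.2% of eligible loci. AT2G28200, a zinc finger gene, was the nearest member to ARF10, with 20 annotated genes between them. It had 26 and 21 reads in arf10/16 with and without Al, against 70 and 62 in WT with and without Al. AT4G29200 was the nearest to ARF16, with 118 annotated genes between. The main transcript model of the members had a median length of 1197 bp, against 1611 bp for eligible loci. Among members, 83 had 1 model listed (97.6%, beside 96.7% of eligible loci). Of the other two, PEPC1 had 44 and 26 reads of its first model in arf10/16 with and without Al, against 134 and 79 in WT with and without Al, so its main model followed the sum. Of the members, 11 overlap another measured gene on the opposite strand, among them AT2G36090 with the Casparian strip gene CASP1. The share of eligible loci with such an overlap is not given here, so this count lacks a background. AT2G36090 had 19 and 46 reads in arf10/16 with and without Al, against 59 and 118 in WT with and without Al. CASP1 had 101 and 432 reads in arf10/16 with and without Al, against 62 and 628 in WT with and without Al. Whether reads were counted by strand is not given in the sources used here, so such pairs cannot be told apart.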

How the data were processed

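The authors deposited whole-number read counts per transcript model and an RPKM table of the same models for 4 root libraries. For the aligner, genome build, annotation and strand setting, the sources used here give nothing. Counts marked null were set to 0 (15308 cells) and summed over the models of a locus. The deposited RPKM returned whole-number model lengths within 0.01 bp for 100% of models. Names, gene order and overlaps between genes came from RefSeq TAIR10.1 by locus identifier (99.3% matched), whose coordinates are not printed; promoter motifs were not analysed here. Loci past edgeR's filterByExpr (14739) were scaled by TMM (0.9371 to 1.0761) and fitted with genotype and Al as additive terms (edgeR 4.0.16, R 4.3.3; adjustment by Benjamini-Hochberg). The SE is the absolute effect over the square root of F. On simulated data with 14739 loci, the test of the Al effect called 43 of 100 loci changed 2-fold, 90 of 100 changed 4-fold and 5 unchanged ones. The simulation gave all loci the same dispersion (0.0259), no departure from additivity and few changed loci. Its rates therefore need not hold for the real libraries. DESeq2 1.42.0 and limma 3.58.1 served as alternatives. Named loci are ARF genes, the 20 lowest mean ratios, members with 100 reads in both WT libraries, members in 16 gene lists, those near a limit (3 a side), the 5 largest Al changes each way and adjacent members. Others named were chosen after their values were seen, as were the functional groupings. The members and lists were chosen with earlier results of these data known.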

Additional observations from a re-analysis of the deposited data

How the results depend on the processing

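The number of members depends on where the limits are set: a read minimum of 10 gave 143 members and one of 50 gave 36, while a ratio limit of 0.4 gave 25 and one of 0.6 gave 266. TMM scaling gave 61, RPKM and single models 85 each, and the demand that both counting intervals lie below 1 gave 78. With DESeq2's Wald test 5 members rose and 2 fell with Al, against 13 and 12 with edgeR's quasi-likelihood test; over all loci it called 1053 and 696, against 2282 and 1929. Scaling by column totals in edgeR gave 9 and 14 members, limma-trend on log2(RPKM + 1) 9 and 12, and no expression filter 13 and 13. Counts of members higher or lower with Al within a genotype stayed within 1.5 times under TMM, a prior count of 0.5 and RPKM. Of 54 named loci, 15 had an Al effect that lost significance with DESeq2, 4 with limma, 3 with column totals and 1 without the filter, where 1 other became significant. No effect past the test changed sign under these 4 settings. Of those not past it, AT1G11700 (0.05) became -0.039 with column totals, -0.23 with DESeq2 and -0.27 with limma, and AT5G55580 (-0.08) became 0.12 with DESeq2 and 0.003 with limma; the cause was not tested. No paired analysis was possible because each group has 1 library and so no replicate numbers to pair; the additive model itself compares Al within genotype. Depth limits the ratios: the median member had 49 reads in WT without Al, and thin members carry wide counting intervals.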

Other observations

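Among the gene lists without a member, those of phosphate starvation and mitosis were among the ones lower in arf10/16, as a description of single libraries. Of 22 phosphate starvation genes, 19 were below WT in arf10/16 in both treatments and 2 above in both. Their median log2 ratio was -0.50 with Al and -0.65 without, beside -0.06 and -0.12 over all 14739 loci tested. Among them, SPX3 had 718 and 187 reads in arf10/16 with and without Al, against 1339 and 403 in WT with and without Al. NPC4, a phospholipase C, had 597 and 312 reads in arf10/16 with and without Al, against 1177 and 615 in WT with and without Al. PHR1, a regulator of the response, had 189 and 159 reads in arf10/16 with and without Al, against 188 and 158 in WT with and without Al, with both counting intervals including a ratio of 1. Of 14 mitotic genes, 13 were below WT in both treatments. The 13 mitotic genes past the expression filter had a median log2 ratio of -0.46 with Al and -0.78 without. The share of all loci below WT in both treatments is not given here, so the counts of both lists lack a background. By column totals the median eligible locus was itself below WT, at -0.08 with Al and -0.15 without.

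Of the remaining lists that are no cell type markers, SKU5-similar oxidases had medians of 0.21 with Al and -0.46 without, iron uptake genes 0.08 and -0.45, root triterpene clusters 0.02 and -0.36, and auxin response genes -0.38 and -0.06. These medians are over the genes of each list past the expression filter, and the difference between lists was not tested.

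UMAMIT12, outside the rule by its ratio without Al, had 133 and 94 reads in arf10/16 with and without Al, against 312 and 184 in WT with and without Al. It rose with Al by 0.74 ± 0.19 (log2, SE; adjusted p = 0.0194, edgeR's quasi-likelihood test), higher with Al in both genotypes.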
